A study of Mus musculus with 16 samples.

Results

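Astro_129 is the RNA-seq library of 1 clone of astrocytes, set here against the libraries of the 4 other astrocyte clones, Astro_C2, Astro_G4, Astro_mC3 and Astro_mE6, among 16 libraries in the series. Its genes were chosen by their values in this same contrast: those at least 4-fold above the highest or below the lowest of the other clones, with Gfap and H19 as the starting examples, and those of chromosome 1. Of 50600 genes in the files, 13541 had a mean of at least 1 CPM (the depth-normalised read count, with library sizes scaled by TMM) over the 5 libraries, and 537 of these lay at least 4-fold outside the range of the other clones. On chromosome 1, 772 genes had a mean of at least 50 reads and 636 had 20 or more allele-specific reads in each of the libraries. Because the values themselves chose the genes, and clone 129 has 1 library, all differences are given as a description and no test was made on them.

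All 5 clones are F1 hybrids of the strains 129Sv and Cast/EiJ, whose maternal chromosomes are 129 and paternal ones Cast, so that reads over strain-specific variants can be assigned to an allele. Embryonic stem cells had been turned into neural progenitor cells (NPCs), single NPCs had been expanded into clonal lines, and these had been differentiated into astrocytes in medium with BMP4. Astro_129, Astro_C2 and Astro_G4 are labelled female and Astro_mC3 and Astro_mE6 male. Each clone stands for 1 cell line that has its own history, so what a clone shares with no other and what its 1 culture or library adds cannot be told apart. In bulk RNA, fewer cells of a type and less RNA per cell cannot be told apart either. To keep strain and clone apart, the strain allele is called the 129 allele and the clone Astro_129.

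Astrocytes are the glial cells that support neurons, buffer ions and take up transmitter, and their best known marker is Gfap, the protein of their intermediate filaments. Progenitors kept in culture turn on Gfap when BMP and JAK-STAT signals reach them. Autosomal genes are normally read from both parental copies. Imprinted genes such as H19 and Mest are read from 1 parental copy, H19 from the maternal and Mest from the paternal, and X-linked genes in female cells mostly from the active X chromosome.

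The libraries held 78257443 to 93963293 reads in genes, of which 26753109 to 32518327 could be assigned to an allele, with 88165502 and 30147717 in Astro_129. Astro_129 had 12775 genes at 1 CPM or more and the other clones 13221 to 13336. Xist, the RNA that coats the inactive X chromosome, was at 1689 CPM in Astro_129, 1462 in Astro_C2 and 1944 in Astro_G4, and at 0.45 and 0.33 CPM in Astro_mC3 and Astro_mE6. The Y-linked gene Ddx3y had 7728 reads in Astro_mC3 but 1 read in Astro_mE6, which is labelled male, so the main counts are also given without Astro_mE6, as are the printed ratios that it moves by over 1.5 times. The titles of Astro_129, Astro_mC3 and Astro_mE6 share a code that those of Astro_C2 and Astro_G4 do not have.

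The label of astrocytes was checked on 32 astrocyte markers, of which 31 passed the filter on low values. Their summed level was 11419.8 CPM in Astro_129 and 13962 to 22748 CPM in the other clones, so Astro_129 was below all 4. Slc1a3, the glutamate transporter of astrocytes, was at 599 CPM in Astro_129 and 576 to 2639 CPM in the others, and Cst3, the secreted protease inhibitor cystatin C, at 464 against 1658 to 3020 CPM. Genes that define other cell types were at low levels. The sums in Astro_129 against the range of the other clones were 67.6 CPM against 56.2 to 114 for 12 microglia genes, 31.7 against 54.4 to 100.8 for 12 oligodendrocyte genes, and 201 against 167 to 758 for 22 mesenchymal and endothelial genes. For 16 neuron genes the sum was 814 CPM in Astro_129 and 486 to 1375 in the other clones. In each of these sums Astro_129 lay within or below the range of the other clones.

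The first question was how many genes, and which, set Astro_129 apart. Of 13541 genes, 59 (0.436%) were at least 4-fold above the highest of the other 4 clones and 478 (3.53%) at least 4-fold below the lowest. Genes with fewer than 3 reads in a library were set at 3 reads there for these ratios. With each other clone set in turn against the remaining 4 under the same rule, the counts above and below were 54 and 27 for Astro_C2, 48 and 102 for Astro_G4, 41 and 15 for Astro_mC3, and 29 and 34 for Astro_mE6. The number above in Astro_129 was thus near that of Astro_C2 and Astro_G4, whereas the number below was the highest of the 5 clones. Without Astro_C2 the number above was 102, and without Astro_mE6 the numbers were 69 above and 547 below.

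**Figure D1:**
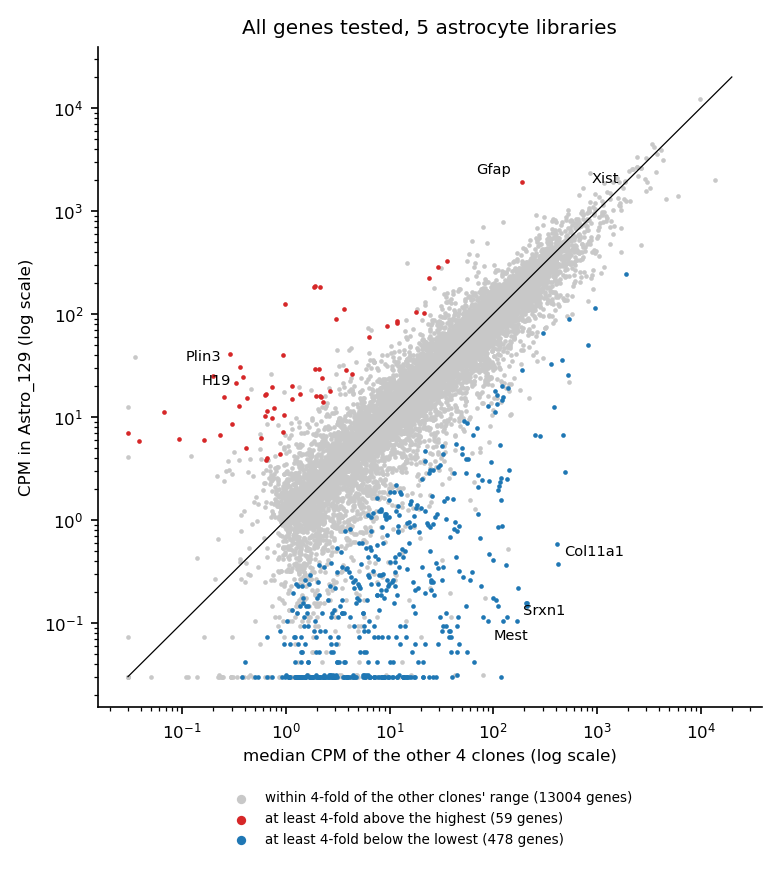
Each point is 1 of 13541 genes, with the median CPM of the other 4 astrocyte clones on the x axis and the CPM in Astro_129 on the y axis, both on log scales with values under 0.03 drawn at 0.03. The 478 genes at least 4-fold below the lowest clone (blue) reach down to the line of genes without reads, while the 59 at least 4-fold above the highest (red) are fewer and mostly low in the other clones.

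The genes below were often close to absent. Of the 478, 59 had 0 reads in Astro_129, 135 had at most 3 reads, and 385 were under 1 CPM, although 362 were at 1 CPM or more in each of the other 4 clones and 129 at 10 CPM or more in each. The median distance to the lowest of the other clones was 14.0-fold with the floor of 3 reads, and 100 genes were at least 50-fold below, against 4 in Astro_C2, 11 in Astro_G4, 1 in Astro_mC3 and 0 in Astro_mE6 when those were set apart in the same way. Just inside and just outside the limit lay Rhoj, at 4.01-fold below, and Elovl2, at 3.98-fold. For the genes above, the corresponding pair was Ahnak2, at 4.01-fold, and Zfp57, at 3.95-fold.

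The genes below were found on every chromosome. Among the autosomes their share of the genes tested ran from 1.53% to 6.02%, with 3.32% (24 of 722 genes) on chromosome 1, and on the X chromosome it was 5.93% (27 of 455). Of the 420 that had an autosomal position, among 11995 such genes tested, 59 lay next to another gene of the set in the order of tested genes. These made 33 neighbouring pairs, chosen after their values were seen. How many pairs 420 genes would make at random positions was not computed, so whether the set is clustered was not tested. The pairs include the run Frrs1, Palmd, Plppr4 and Plppr5 on chromosome 3. Palmd, which encodes palmdelphin, had 12 reads in Astro_129 and 3.22, 3.92, 15.5 and 7.10 CPM in Astro_C2, Astro_G4, Astro_mC3 and Astro_mE6. Plppr5, a membrane protein related to lipid phosphatases, had 0 reads in Astro_129 and 2.89, 1.38, 1.72 and 4.89 CPM in those clones. The other 2 genes of the run, Frrs1 and Plppr4, also had 0 reads in Astro_129.

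Among the genes furthest below, 4 with a single promoter entry in RefSeq are shown with the bases just before their start. CG pairs are marked because the authors measured DNA methylation over stretches rich in CG at the starts of Acyp2 and Bag3. The 150 bases end at the base before the annotated start and are read 5′ to 3′ on the gene's strand, with each CG pair in capitals. Pcsk1n lies at chrX:7919672-7919821 on the plus strand, Srxn1 at chr2:152105374-152105523 on the plus strand, Pogk at chr1:166409829-166409978 on the minus strand and Sri at chr5:8045928-8046077 on the plus strand, all on GRCm38.p6.
Pcsk1n: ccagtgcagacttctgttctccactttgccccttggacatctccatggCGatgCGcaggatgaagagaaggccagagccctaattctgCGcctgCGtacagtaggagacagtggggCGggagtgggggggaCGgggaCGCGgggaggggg
Srxn1: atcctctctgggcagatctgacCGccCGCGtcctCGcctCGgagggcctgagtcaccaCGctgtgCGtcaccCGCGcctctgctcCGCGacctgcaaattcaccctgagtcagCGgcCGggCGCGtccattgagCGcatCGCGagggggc
Pogk: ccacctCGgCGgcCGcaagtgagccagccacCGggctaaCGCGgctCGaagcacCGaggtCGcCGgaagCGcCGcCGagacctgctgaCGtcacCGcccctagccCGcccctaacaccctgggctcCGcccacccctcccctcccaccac
Sri: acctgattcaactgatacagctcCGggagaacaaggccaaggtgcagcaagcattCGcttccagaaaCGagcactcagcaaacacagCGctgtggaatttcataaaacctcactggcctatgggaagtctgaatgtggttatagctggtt

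The pair CG occurs 8 times before Pcsk1n, 18 times before Srxn1, 17 times before Pogk and 4 times before Sri. In the same window of all 32851 promoters in the table, 85.7% held at least 1 CG pair, the median was 4, and the middle 80% ran from 0 to 17. CG reads the same on both strands, so 1 search covers both. The table held a promoter for 330 of the 478 genes (69.0%), which is too few for a comparison over the whole set, and none was made. DNA methylation was not measured in these libraries.

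Srxn1 encodes sulfiredoxin, which restores oxidised peroxiredoxins. It had 10 reads in Astro_129, that is 0.10 CPM, and 120, 124, 263 and 213 CPM in Astro_C2, Astro_G4, Astro_mC3 and Astro_mE6, so Astro_129 was 1154-fold below the lowest. Pogk, a protein derived from a transposase with a KRAB domain, had 4 reads in Astro_129 (0.041 CPM) and 46.9 to 78.3 CPM in the other clones, a distance of 1131-fold. In both genes Astro_129 was nearly without reads and the other 4 clones had similar levels. Pcsk1n, the precursor of an inhibitor of prohormone convertase, had 2 reads in Astro_129 and 145, 123, 43.4 and 117 CPM in the others. Its ratio to the lowest clone was 2093, with an exact 95% counting interval of 579 to 17286, and 5666 without Astro_mC3. Sri encodes sorcin, a calcium-binding protein, and had 10 reads against 114 to 161 CPM.

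Adgrg6, an adhesion receptor needed for myelination by Schwann cells, had 15 reads in Astro_129 and 169 to 326 CPM in the others. Col11a1, a fibrillar collagen chain, had 36 reads (0.37 CPM) and was at 214, 385, 492 and 457 CPM in the other clones. Golim4, a Golgi membrane protein, had 11 reads against 103 to 231 CPM. The distance to the lowest of the other clones was 1088-fold for Adgrg6, 574-fold for Col11a1 (1033-fold without Astro_C2) and 902-fold for Golim4. Ak3, a mitochondrial adenylate kinase, had 16 reads against 86.2 to 207 CPM, and Smim10l1 14 reads against 66.0 to 205 CPM. Vstm4 had 0 reads in Astro_129 and 23.0, 49.4, 38.8 and 42.2 CPM in the others, so it was at least 739-fold lower, and at least 1247-fold without Astro_C2.

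Mest, an imprinted gene of the mesoderm lineage that is normally read from the paternal copy, had 10 reads in Astro_129 (0.10 CPM) and 82.7, 200, 94.6 and 69.4 CPM in Astro_C2, Astro_G4, Astro_mC3 and Astro_mE6. The 3 poly(A) NPC libraries, of the clones F5, mG2 and mG6, held 3784, 1971 and 763 CPM. Astro_129 was thus 670-fold below the lowest astrocyte clone, and all 3 NPC libraries were above all 5 astrocyte libraries. The allele in use was not shared by the other clones: 0.1% of allele-specific reads were from Cast in Astro_C2, 47.9% in Astro_G4, 98.4% in Astro_mC3 and 100% in Astro_mE6, while Astro_129 had 2 such reads.

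**Figure D2:**
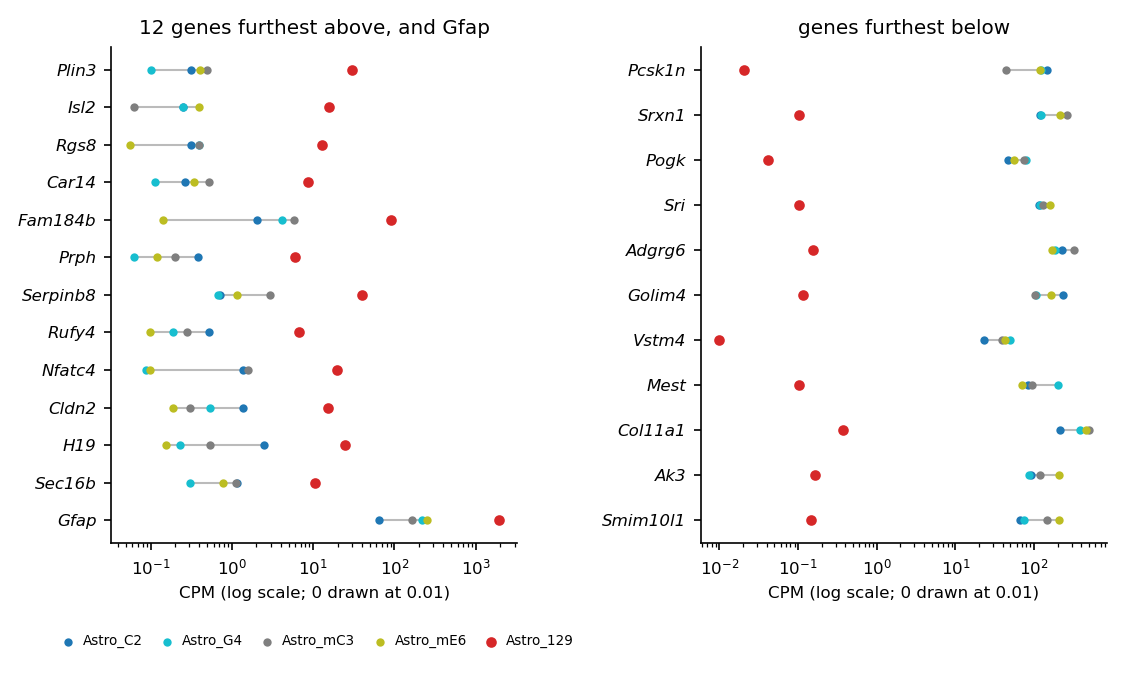
CPM on a log scale in each astrocyte library for Gfap with the 12 genes furthest above the other clones (left) and for 11 of the genes furthest below (right), with the range of the other 4 clones as a grey line and 0 drawn at 0.01. The red points of Astro_129 stand apart from the 4 others by at least 7.52-fold on the left and at least 455-fold on the right.

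The levels of these genes in NPCs were taken from other clones. Of the 478, 276 (57.7%) were at 1 CPM or more in all 3 poly(A) NPC libraries, against 88.3% of all 13541 genes tested, and 78 were in none. In 278 of the 478 (58.2%) all 3 NPC libraries were at least 4-fold above Astro_129, against 697 (5.15%) of all genes, a difference that the choice of genes low in Astro_129 favours. NPC libraries of clone 129 were not analysed here, so whether these genes were already low in its progenitors was not tested. The next 3 genes were chosen after their values were seen. Arsb, the lysosomal arylsulfatase B, had 7 reads in Astro_129 and 29.2 to 41.4 CPM in the other astrocyte clones, and Gusb, the lysosomal beta-glucuronidase, had 11 reads and 19.2 to 43.9 CPM. Mavs, the mitochondrial adaptor of RNA sensing, had 2 reads in Astro_129 and 13.2, 21.2, 11.1 and 32.9 CPM in the other clones.

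Gfap, on chromosome 11 from 102887336 to 102897200, was the most abundant of the genes above. It was at 1911 CPM in Astro_129, against 65.1 CPM in Astro_C2, 218 in Astro_G4, 164 in Astro_mC3 and 254 in Astro_mE6 (175 ± 82.2 CPM, SD, n = 4). Astro_129 was 7.52-fold above the highest of the others and outside their range. The NPC libraries held 0.70 to 2.15 CPM. Both alleles contributed: 45.2% of 99754 allele-specific reads were from Cast in Astro_129 (95% Wilson interval 44.9 to 45.5%), and 46.8 to 58.4% in the other clones. The 129-allele reads were 3.62 and the Cast-allele reads 3.11 above the median of the other clones on the log2 scale. The 150 bases before its start (chr11:102897201-102897350, minus strand) are shown because Gfap heads the set. They hold 1 CG pair.
Gfap: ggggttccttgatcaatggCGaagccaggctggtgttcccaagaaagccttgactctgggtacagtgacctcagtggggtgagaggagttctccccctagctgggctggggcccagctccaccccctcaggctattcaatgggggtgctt

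H19, a long non-coding RNA on chromosome 7 from 142575530 to 142578146, is the second gene that the choice started from. It was at 24.4 CPM in Astro_129, 2.49 in Astro_C2, 0.23 in Astro_G4, 0.54 in Astro_mC3 and 0.15 in Astro_mE6, so Astro_129 was 9.81-fold above the highest, and 44.9-fold without Astro_C2. The NPC libraries held 0.0097 to 0.16 CPM. In Astro_129, 95.6% of 866 allele-specific reads were from the Cast allele, the paternal copy (94.0 to 96.8%). In Astro_C2 the Cast share was 60.9% of 64 reads (48.7 to 71.9%), and this interval includes equal shares. The other clones had few allele-specific reads, with 0 of 15 from Cast in Astro_mC3 (0 to 20.4%), 0 of 9 in Astro_G4 (0 to 29.9%) and 83.3% of 6 in Astro_mE6 (43.6 to 97.0%). The few reads of Astro_mC3 and Astro_G4 were thus from the 129 allele, the maternal copy, and most of those of Astro_129 from the Cast allele.

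Plin3, which coats lipid droplets, was furthest above. It was at 30.3 CPM in Astro_129 and at 0.32, 0.10, 0.49 and 0.41 CPM in Astro_C2, Astro_G4, Astro_mC3 and Astro_mE6, a distance of 61.5-fold to the highest. Of its 1858 allele-specific reads in Astro_129, 0.22% were from Cast (0.084 to 0.55%), so practically all reads came from the 129 allele. The other clones had 6 to 21 allele-specific reads of Plin3.
Plin3: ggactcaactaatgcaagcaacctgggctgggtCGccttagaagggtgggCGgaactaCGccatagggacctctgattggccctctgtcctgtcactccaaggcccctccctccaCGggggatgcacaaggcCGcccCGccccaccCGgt
These 150 bases before its start (chr17:56290512-56290661, minus strand) hold 7 CG pairs and are shown as those of the gene furthest above.

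Isl2, a LIM homeodomain factor of motor neurons, was at 15.5 CPM in Astro_129 and at most 0.40 CPM in the others, with 47.6% of 103 allele-specific reads from Cast. Nfatc4, a factor regulated by calcineurin, was at 19.5 CPM against 1.38, 0.0885, 1.59 and 0.0995 CPM. Prph encodes peripherin, an intermediate filament protein of peripheral neurons, and was at 5.91 CPM against 0.0632 to 0.38 CPM. These 3 genes were low in every other astrocyte clone, which the choice by distance above the highest clone favours. Among all genes above, 12 were under 1 CPM in all 4 other clones, Isl2 and Prph among them. Such genes passed the filter of 1 CPM through Astro_129 alone. Dlx1 and Dlx2, homeobox genes of the ventral forebrain that lie side by side, were at 12.1 and 16 CPM in Astro_129. Their highest values in the other clones were 1.80 and 3.33 CPM.

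Cldn2, an X-linked tight junction protein, was at 15.1 CPM in Astro_129 and 0.19 to 1.38 CPM in the others, and all 486 of its allele-specific reads in Astro_129 were from Cast. Car14, a membrane-bound carbonic anhydrase, was at 8.56 CPM against 0.11 to 0.53 CPM. Fam184b was at 90.2 CPM against 0.14 to 5.82 CPM, with Cast shares of 12% in Astro_129 and 0 to 13.1% in the others. The 0% of Astro_mE6 rests on 6 allele-specific reads (0 to 39.0%). Of the 59 genes above, 45 had an autosomal position. In Astro_129, 9 of these were monoallelic (a Cast share under 15% or over 85%), 17 biallelic (35 to 65%), 18 in between and 1 under 20 allele-specific reads, against 642 monoallelic and 8849 biallelic of all 11995 autosomal genes tested. Genes of striated muscle lay on both sides of the range, and those named here were chosen after their values were seen. Tnni1, a troponin I, was at 10.2 CPM in Astro_129 and 0.39 to 1.45 in the others. Trim63, a ubiquitin ligase of muscle, was at 16.8 CPM and 0.44 to 1.89. The muscle myosin genes Myh2, Myh1 and Myh8 were instead 7.19-fold, 4.47-fold and 16.4-fold below the lowest of the other clones. The muscle factors Myod1 and Myog were under the filter of 1 CPM.

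The second question was the dosage of chromosome 1. The median Cast share of its 636 genes was 34.2% in Astro_129 and 48.3 to 50.3% in the other clones, and on the other autosomes of Astro_129 the medians were 48.7 to 51.5%. All reads of chromosome 1 lay 0.43 above the other clones at the median on the log2 scale (1.35-fold, 772 genes), against -0.15 to 0.07 on the other autosomes of Astro_129 and -0.17 to -0.02 for chromosome 1 in the other clones, each clone being set against the remaining 4. Split by allele, the reads of the 129 allele were 1.81-fold (log2 0.86) and those of the Cast allele 0.973-fold (log2 -0.04) those of the other clones at the median. The 129-allele value was outside the range of the other clones' own chromosome 1 values, -0.24 to -0.01, and the Cast-allele value, -0.0394, lay just under theirs, -0.0376 to 0.0436. Without Astro_mE6 the total was at 0.44.

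**Figure D3:**
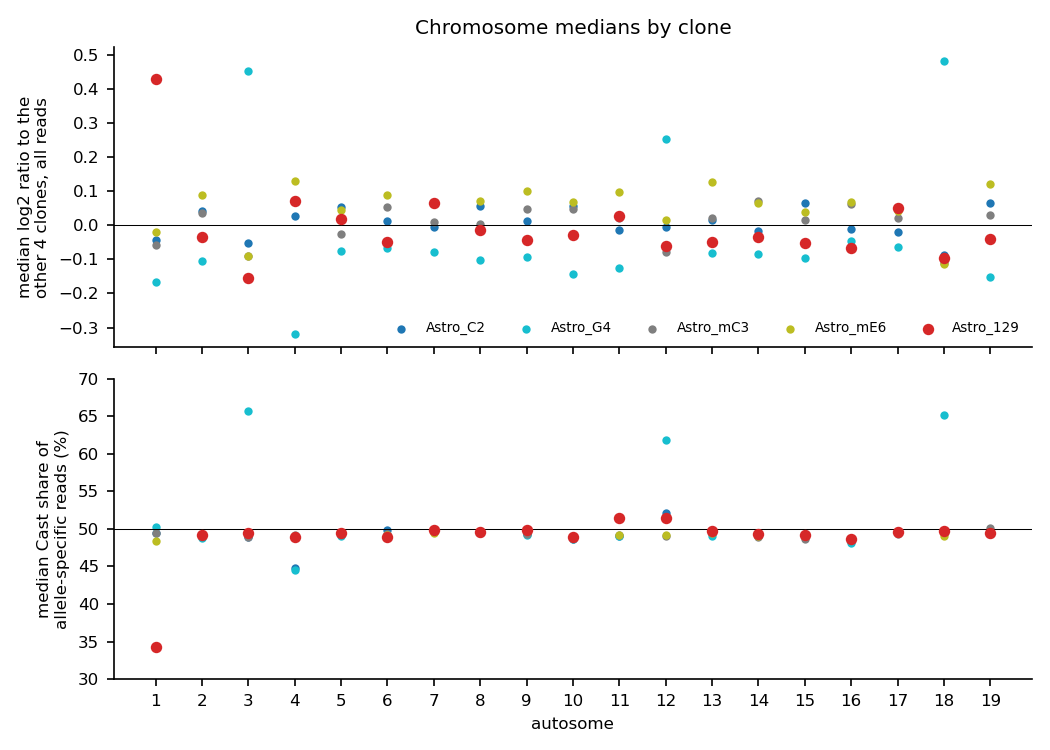
Medians over the genes of each autosome for each clone, with the log2 ratio of all reads to the other 4 clones above and the Cast share of allele-specific reads in percent below. Astro_129 (red) departs on chromosome 1, at 0.43 and 34.2%, and Astro_G4 departs in the other direction of the Cast share on chromosomes 3, 12 and 18, at 65.7%, 61.8% and 65.2%.

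A shift of this size was not particular to Astro_129. In Astro_G4, chromosomes 3 and 18 had log2 ratios of 0.45 and 0.48 in all reads and chromosome 12 had 0.25. There the Cast allele was the one in excess, with medians of 0.86, 0.83 and 0.52 on the log2 scale on chromosomes 3, 18 and 12, and the 129 allele was at -0.14, -0.10 and -0.13. Chromosome 1 in Astro_129 and these 3 chromosomes in Astro_G4 thus showed the same form, an excess of 1 allele beside an allele near its level in other clones, with the alleles exchanged. In shares of the library, chromosome 1 took 8.89% of all reads in Astro_129 and 6.95 to 7.33% in the other clones. It took 12.3% of the 129-allele reads against 7.26 to 8.09%, and 6.84% of the Cast-allele reads against 7.45 to 7.62%.

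The excess ran along the whole chromosome. In 10 windows of 20 Mb, with 18 to 99 genes each, the median Cast share in Astro_129 was 32.2 to 35.2%, and in the other clones 47.3 to 52.3%. The medians of the 129 allele were 0.64 to 1.01 and of the Cast allele -0.16 to 0.04 on the log2 scale. No window was near the level of the other clones in its Cast share. Of the 636 genes, 557 (87.6%) had a lower Cast share in Astro_129 than in all 4 other clones, against 1848 of 9837 (18.8%) on the other autosomes and 22.3% of all 11529 genes with such reads. In 442 genes (69.5%) the 129-allele reads were above all 4 other clones, against 24.1% on the other autosomes and 26.2% of all genes. The total was above all 4 in 375 of 772 genes (48.6%), against 20.9% on the other autosomes and 22.4% of all genes.

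**Figure D4:**
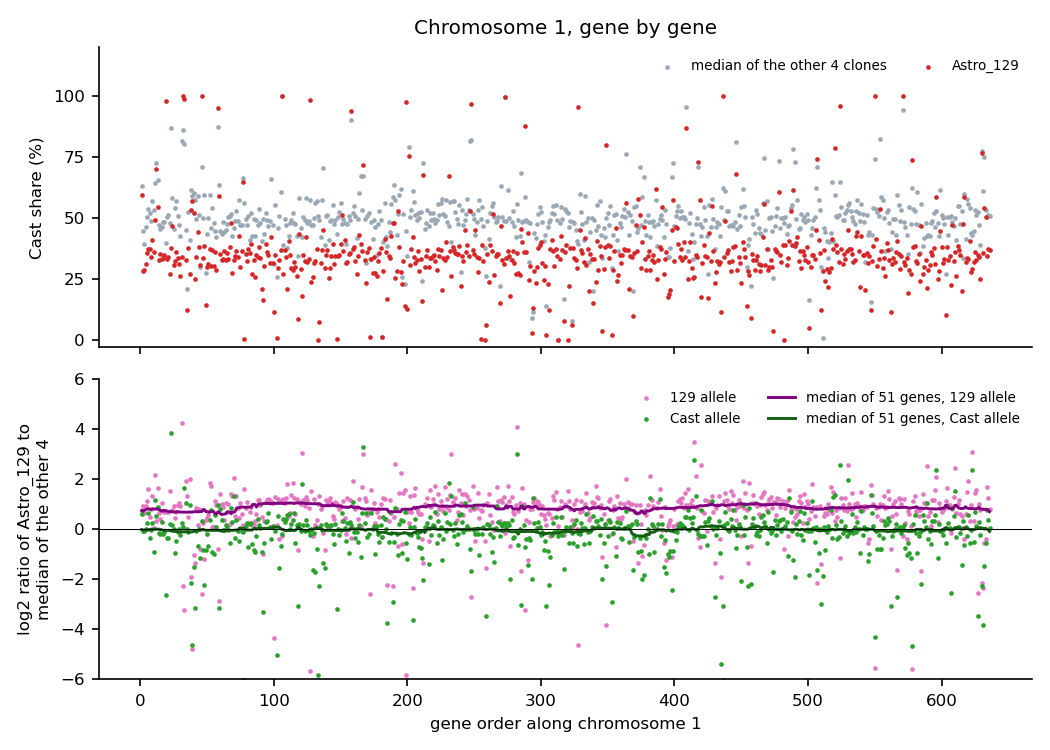
Genes of chromosome 1 in their order along the chromosome (636 genes), with the Cast share in percent above and the log2 ratio of Astro_129 to the median of the other 4 clones for each allele below (running medians of 51 genes as lines, and 12 genes beyond ±6 not drawn). Astro_129 (red) has medians of 32.2 to 35.2% in the windows of 20 Mb, mostly under the median of the other clones (grey), and the 129-allele line runs above the Cast-allele line along the whole chromosome.

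Restricting the view to the 473 genes that were biallelic (a Cast share of 35 to 65%) in all 4 other clones removed most genes with an allelic state of their own. Among these the median Cast share in Astro_129 was 34.4%, with quartiles of 31.7 and 37.2%, and 431 (91.1%) lay between 25 and 45%, against 16.1% of 6996 such genes on the other autosomes. The 129 allele was at 1.89-fold, the Cast allele at 0.999-fold and the total at 1.43-fold of the other clones at the median. For single genes the middle 80% of log2 ratios of the total ran from -0.26 to 0.98, and of Cast shares from 28.1 to 40.5%. These spreads are on different scales and were not compared. The 42 genes outside 25 to 45% comprised 4 under 15%, 14 from 15 to 25%, 21 over 45% and up to 85%, and 3 over 85%.

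The best covered genes of chromosome 1 show how the allelic share and the total came apart. Rpl7, a protein of the large ribosomal subunit, was at 1000.5 CPM in Astro_129 and 632, 715, 718 and 959 CPM in the others, with a Cast share of 30.8% (30.3 to 31.3%) against 44.3 to 46.8%. Its total was above all 4 clones and its Cast share below all 4. Bmpr2, a type II receptor for BMP ligands, was at 1304 CPM in Astro_129 and 2140, 2030, 1633 and 1640 CPM in the others, yet its Cast share was 35.3% against 49.0 to 51.9%. Its total was thus below all 4 clones while its Cast share was shifted like that of the chromosome.

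In most other well covered genes the Cast share was also below all 4 clones, with the total within or above their range. Pea15a, a phosphoprotein of astrocytes, was at 1579 CPM against 1264 to 5462 CPM, with 31.4% from Cast against 35.1 to 45%. Astn1, the neuronal adhesion protein astrotactin, was at 923 CPM against 482 to 997, with 32.6% from Cast against 48.1 to 70.4%. Fn1, fibronectin, was at 1422 CPM against 221 to 1112, with 28.0% against 36.4 to 78.6%. Brinp2, Dbi and Lamc1 were within the range of the other clones in total and had Cast shares of 29.7%, 29.2% and 37.2%, under all 4 other clones. The exception among these well covered genes was Serpine2, a serine protease inhibitor, which had a Cast share of 45.2% (45 to 45.4%, 199061 reads) in Astro_129, within the 39.6 to 47.3% of the others, and 3155 CPM against 2912 to 6526.

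Single genes of chromosome 1 departed far from the level of the chromosome, and the next 5 had the highest ratios among its genes with at least 500 reads in every library. Csrp1, a LIM domain protein, was at 326 CPM in Astro_129 and 25.6 to 47.5 CPM in the others, with 25.9% from Cast. Nrp2, a receptor for semaphorins, was at 85.8 CPM against 6.68 to 14.6 CPM, with 71.6% from Cast, and Susd4, a complement regulator, was at 169 CPM against 23.4 to 64.1 CPM, with 58.4%. Lbr, the lamin B receptor, was at 70.8 CPM against 13.1 to 26.2 CPM and Ankrd44 at 113 against 8.46 to 43.0 CPM. In all 5 genes both alleles were above the other clones on the log2 scale, by 2.05 to 3.47 for the 129 allele and 1.04 to 3.26 for the Cast allele.

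Other genes of chromosome 1 were far below in spite of the dosage. Nfasc, an adhesion protein of axons and glia, had 284 reads (2.94 CPM) in Astro_129 and 281, 438, 1026 and 546 CPM in the other clones, and was 95.4-fold below the lowest, and 149-fold without Astro_C2. The next 5 had the lowest ratios among genes with at least 500 reads in every library. Igfbp2, a binding protein for insulin-like growth factors, was at 245 CPM against 1403 to 4884 CPM. Adam23, a membrane protein of the metalloprotease family, was at 18.2 CPM against 57.2 to 292 CPM, with 1.3% from Cast against 27.8 to 36.1%. Gbx2, a homeobox gene of the midbrain and hindbrain border, was at 21.1 CPM against 51.1 to 278 CPM, and Pla2g4a, a phospholipase, at 11.8 CPM against 35.5 to 310 CPM. Arhgef4 was at 19 CPM against 80.7 to 295 CPM. Altogether 9 genes of chromosome 1 (1.25% of 722 tested) were at least 4-fold above the other clones and 24 (3.32%) at least 4-fold below. Over all 13541 genes these shares were 0.436% and 3.53%.

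The third question was which genes were read from 1 allele in Astro_129 alone. Among the 11529 genes that had 20 or more reads with an allele in each library, 97 (0.841%) were monoallelic in Astro_129, with a Cast share under 15% or over 85%, and biallelic in each of the other 4 clones. Of these, 43 were read from the 129 allele and 54 from the Cast allele. The same count was 13 for Astro_C2, 236 for Astro_G4, 6 for Astro_mC3 and 8 for Astro_mE6, so Astro_129 stood above 3 clones and below Astro_G4. Without Astro_mE6 it was 114. None of the 97 was placed on the X chromosome, whose genes are monoallelic in advance in the clones labelled male.

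The median total of these genes was 0.481-fold that of the other clones, against 1.04-fold for 7201 genes biallelic in all 5, and 78 of the 97 were lower than in all 4 other clones, against 21.8% of all 11529 genes. The retained allele was at 0.934-fold at the median and the other at 0.0115-fold. Since monoallelic genes were chosen by the ratio of the alleles, a low level of the lost allele follows from the choice. The lower total follows from it in part. The choice does not fix the level of the retained allele, but the ratio and the 20 reads required favour a high one. On chromosome 1, 4 such genes were read from the 129 allele, with a median total of 1.01-fold, and 3 from the Cast allele, with 0.390-fold. The retained allele was at 2.05-fold in the 4 and 0.682-fold in the 3.

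**Figure D5:**
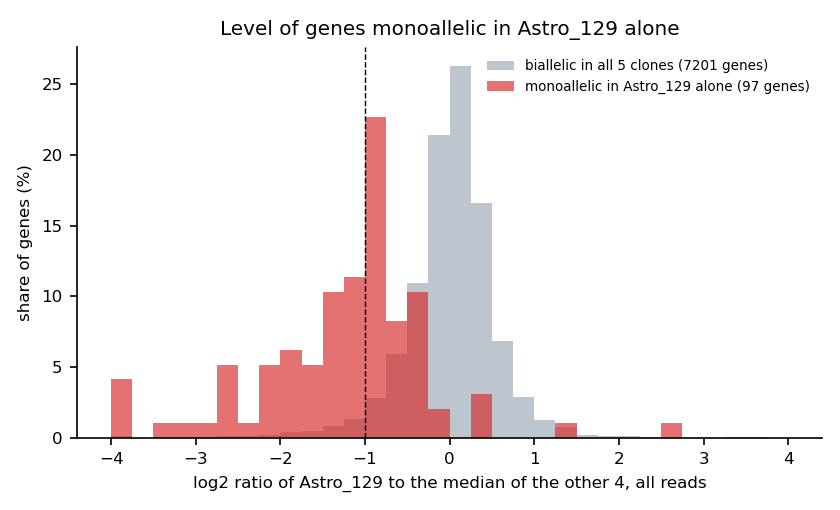
Share of genes in percent by the log2 ratio of all reads in Astro_129 to the median of the other 4 clones, for 97 genes monoallelic in Astro_129 alone (red) and 7201 genes biallelic in all 5 clones (grey), in bins of 0.25 with values beyond ±4 in the outer bins and a dashed line at -1. The red distribution has its median at 0.481-fold, close to the dashed line, and the grey one at 1.04-fold.

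The best covered of the 97 was an exception in its total. Cd44, the hyaluronan receptor that marks astrocyte precursors and reactive astrocytes, was at 780 CPM in Astro_129 and 479, 99.5, 149 and 102 CPM in the others. Its Cast share in Astro_129 was 1.5% of 38315 reads (1.4 to 1.6%), against 46.4 to 58.0%. Its 129 allele was 3.58 above and its Cast allele 2.40 below the median of the other clones on the log2 scale, so the gene was higher than in all 4 clones on 1 allele. Scrn1, the secernin gene, was at 162 CPM against 253 to 375 CPM, with 2.8% from Cast against 43.4 to 49.0%, and its 129 allele was at -0.14.

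Genes read from the Cast allele alone showed the corresponding form. Ergic1, a protein of the compartment between the endoplasmic reticulum and the Golgi, was at 68.6 CPM against 119 to 157 CPM, with 99.0% from Cast against 45.8 to 47.4%. B3glct, a glucosyltransferase, was at 100.5 CPM against 91.4 to 316 CPM, with 99.2% from Cast, and Clip3, a linker of microtubules and membranes, at 71.2 CPM against 79.9 to 175 CPM, with 99.7%. Cstf2t, a factor of RNA 3′ end processing, had 92.2% and Cavin1, a coat protein of caveolae, 90.6%. In these 5 genes the Cast allele was 0.12 to 0.48 above the other clones on the log2 scale. Rftn2, a raft-linking protein on chromosome 1, was at 62.0 CPM against 100 to 143 CPM with 98.2% from Cast, and its Cast allele was at -0.25.

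The reverse, biallelic in Astro_129 and monoallelic in each of the other 4, was found for 2 genes (0.0173%), Chm and Uxt, and for 4 genes without Astro_mE6. Both are X-linked. Chm, which encodes a Rab escort protein, had a Cast share of 59.4% (56.8 to 62.0%) in Astro_129, 97.1% in Astro_C2, 95.1% in Astro_G4 and 0.1% in both clones labelled male. Uxt, a chaperone-like protein, had 59.1% in Astro_129, 90.4% in Astro_C2, 90.1% in Astro_G4, and 0 and 0.3% in the male clones. Their totals, 122 and 21.8 CPM, were the highest of the 5 clones, 1.21-fold and 1.23-fold above the next.

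On the X chromosome as a whole Astro_129 was the least mixed of the 3 female clones. Of 350 X-linked genes other than Xist with 20 allele-specific reads in each, 41 had a Cast share of 85% or less in Astro_129, 104 in Astro_C2 and 80 in Astro_G4. The median Cast share was 99.9%, 99.6% and 98.8%. In 34 genes the share was 85% or less in all 3 clones, and 4 passed this limit in Astro_129 alone: Fmr1 (76.9%), Chm, Uxt and A230072C01Rik (65.4%). Xist had 0.04% of its reads from Cast in Astro_129, the reverse of the genes on the active X.

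The lists of genes place these members in their pathways. Over all 13541 genes the median log2 ratio of Astro_129 to the other clones was 0.0013, with 22.5% higher than all 4 clones and 24% lower. At the 4-fold limit 0.436% were above and 3.53% below. With library totals alone in place of TMM scaling, this median was 0.16, and each median below shifts with it. Of the 31 astrocyte markers tested, 1 was at least 4-fold above (Gfap) and 3 below (Gja1, Slc4a4 and Gpc5), and the median was -0.51, with 5 higher and 11 lower than all 4. Gja1, the gap junction protein connexin 43, had 2.57 CPM in Astro_129 and 53.6, 104, 132 and 131 CPM in the others. Slc4a4, a sodium bicarbonate cotransporter, had 14.6 CPM against 105 to 138 CPM, and Gpc5, a glypican, 0 reads against 1.66 to 8.71 CPM. Glul, the glutamine synthetase of astrocytes on chromosome 1, had 232 CPM against 578 to 1086 CPM. Gfap and these other astrocyte genes thus stood on opposite sides of the range.

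Intermediate filament genes were split in the same way. Of 10 tested, Gfap and Prph were at least 4-fold above and Nefm, Nefh and Lmna at least 4-fold below, with a median of -0.79, while Vim was at 913 CPM against 728 to 1050 and Nes at 73.0 against 60.1 to 120. Lmna, which encodes the nuclear lamins A and C, had 3.63 CPM in Astro_129 and 121, 110, 71.3 and 80.2 CPM in the other clones. It was 19.7-fold below the lowest, and its 129 and Cast alleles were at -5.27 and -4.44 on the log2 scale. Of 22 genes induced in reactive astrocytes, 0 were above and 3 below, with a median of -1.19, 2 higher and 7 lower than all 4. Cd44, described above, was one of the 2 higher. Hspb1, a small heat shock protein, had 0 reads in Astro_129 and 48.9, 90.2, 7.77 and 3.25 CPM in the others, and was at least 105-fold lower, and at least 249.9-fold without Astro_mE6. S100a10 had 14 reads against 28.6 to 86.2 CPM. Osmr, the receptor subunit for oncostatin M, had 2 reads, and its ratio to the lowest clone was 58.2 (15.7 to 486), and 118 without Astro_mE6.

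BMP targets and JAK-STAT genes were listed because these signals turn on Gfap in cultured progenitors. Signalling itself was not measured, and whether it bears on the level of Gfap in Astro_129 was not tested. Of 21 BMP targets tested, 0 were above and 2 below, the antagonist Grem1 and the ligand Bmp2, with a median of 0.24. Id1, Id2 and Id3, the immediate targets of BMP signals, were at 375, 1081 and 430 CPM in Astro_129, each within the range of the other clones. Grem1 had 3 reads, and its ratio to the lowest clone was 22.8 (7.40 to 114), or 164 without Astro_G4. Bmp2 had 0 reads against 0.69 to 3.21 CPM. Of 22 JAK-STAT and interferon genes, 0 were above and Stat5a, Ifi35 and Osmr below, with a median of -0.13. Stat3 was at 307 CPM in Astro_129 and 184 to 272 CPM in the others, the highest of the 5 clones by 1.13-fold, and Il6st, the shared receptor gp130, was within the range at 492 CPM.

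For imprinted genes the result was mixed. Of 30 tested, H19 was above and Dlk1 and Mest were below, with a median of -0.23, 4 higher and 8 lower than all 4 clones. A growth network of imprinted genes, which shares most of its members with that list, had H19 above, the same 2 below among 10 tested and a median of -0.61. Dlk1 had 0 reads in Astro_129 and 0.43 to 5.41 CPM in the others. Peg3 and Impact were within the range of the other clones, at 220 and 240 CPM, and Gnas was at 1019 CPM against 1534 to 1864. Igf2, the neighbour of H19, was under the filter of 1 CPM.

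In the other lists few genes were far outside, as was so for all genes tested (0.436% above and 3.53% below). In lists this short, a count of 0 or 1 does not set them apart from all genes. Of 17 neural progenitor genes, 0 were outside by 4-fold in either direction (median -0.46), likewise 0 of 16 proliferation genes (median 0.14), 0 of 5 oligodendrocyte genes (-0.75), 0 of 11 mesenchymal and endothelial genes (-1.03) and 0 of 2 pluripotency genes (-0.99). Of 9 neuron genes 1 was below, Syt1, a synaptic calcium sensor, with 1.08 CPM in Astro_129 against 6.89 to 12.3 (median 0.30). Of 4 microglia genes P2ry12 was below, with 3 reads in Astro_129 against 1.53 to 10.4 CPM (median -0.64). Of 30 genes of regional identity, Dlx1 and Dlx2 were above and 0 below (median 0.00065). Of 8 genes of X inactivation and sex, 0 were outside (median 0.48). This last median sets a clone labelled female against clones of both sexes, so sex and clone cannot be told apart in it.

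The chromosome 1 lists differed in their medians of all reads. Of 39 housekeeping and complex genes, 0 were outside by 4-fold, the median was 0.52, and 26 were higher and 2 lower than all 4 clones. Hnrnpu, an RNA-binding nuclear protein, was at 795 CPM against 476 to 589, Sf3b1, a splicing factor, at 650 against 342 to 509, and Ncl, nucleolin, at 782 against 408 to 511. For 28 signalling and transcription factor genes the median was 0.54, with 14 higher and 4 lower, and Eya1, a transcriptional coactivator, was at 110 CPM against 5.63, 0.66, 25.7 and 1.70 CPM. For 14 matrix genes the median was 0.37. The 18 glial genes of chromosome 1 had a median of -0.25, with Nrp2 above and Igfbp2, Cntn2 and Nfasc below, 4 higher and 7 lower than all 4 clones. The medians of the housekeeping, signalling and matrix genes were thus near the 0.43 of the whole chromosome, and that of the glial genes was below 0. These medians are of all reads and also hold each gene's own level. Allelic shares were not compared by list, so whether the lists differ in dosage was not tested.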

How the data were processed

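Poly(A) RNA was sequenced from 5 astrocyte clones and, for levels only, 3 NPC clones, which are other clones. The authors aligned reads to an N-masked GRCm38/mm10 genome with TopHat2 2.1.0 and Bowtie2, assigned them to alleles with SNPsplit and counted stranded read pairs per gene with featureCounts 1.5.1, and their methods state that biological replicates were merged. The deposited values used are whole-number counts per gene for the Cast allele, the 129 allele and all reads. A deposited fraction, the Cast share of each gene, was not used, since shares were computed from the counts. The 8 libraries prepared by ribosomal RNA depletion were not used.

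Counts were scaled to CPM with TMM library sizes (edgeR 4.0.16, R 4.3.3), and further steps used Python 3.11.15, numpy 2.4.6, pandas 2.3.3 and scipy 1.17.1. Gene symbols, positions and promoters came from RefSeq GRCm38.p6. The 5 libraries held 78257443 to 93963293 reads. Genes with a mean of at least 1 CPM were set against the nearest of the other 4 clones, with libraries under 3 reads set to 3 reads, and called at 4-fold. Ratios of genes with 1 to 3 reads carry an exact 95% counting interval. Chromosome medians used a mean of at least 50 reads and, for alleles, at least 20 allele-specific reads in every library. Monoallelic meant a Cast share under 15% or over 85% and biallelic 35 to 65%. Wilson intervals (95%) and read floors cover counting error only.

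With 1 library of clone 129 no test was made. The calculations were checked on simulated data. Named genes were Gfap, H19 and Xist, the 12 furthest above and the 12 furthest below, on chromosome 1 the 10 best covered and, of genes with at least 500 reads in every library, the 5 highest and 5 lowest, the 8 best covered with an allelic state found in Astro_129 alone, and members of 20 gene lists. Others are said to be chosen after their values were seen. Some named genes were left out of the text and the plots. The members and lists were chosen with earlier results of these data known. Alternatives were DESeq2 1.42.0 size factors, library totals, other filters and limits, and fewer comparison clones.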

Additional observations from a re-analysis of the deposited data

Results flagged for a closer look

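In 5 of 142 values examined, 1 of the 4 other astrocyte clones stood far from the remaining 3, by the gap to its neighbour divided by the range of the 4, past the 95% limit of Dixon's ratio. Chance alone gives about 1 such value in 20. For Dlk1 the ratio was 0.912, with Astro_mC3 at 5.41 CPM and the others at 0.43 to 0.54. For Nefm, a neurofilament subunit, it was 0.864, with Astro_C2 at 10.2 CPM and the others at 0.34 to 0.54. For Grem1 it was 0.852, with Astro_G4 at 0.71 CPM and the others at 5.09 to 7.17. For Rgs8, a regulator of G protein signalling on chromosome 1, it was 0.889, with Astro_mE6 at 0.055 CPM and the others at 0.32 to 0.39. For the number of genes monoallelic in a clone alone it was 0.970, with Astro_G4 at 236 and the others at 6 to 13.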

How the results depend on the processing

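The counts, the chromosome 1 medians and the ratios of named genes were recomputed with 1 choice changed at a time. The 59 genes above became 186 with no filter, 31 with a mean of at least 5 CPM, 212 at 2-fold, 22 at 8-fold, 116 against the 2 other female clones, 218 against the 2 clones that share the title code, and 69 to 102 when each other clone was left out, the latter without Astro_C2. The 478 genes below became 295 with 5 CPM, 897 at 2-fold, 317 at 8-fold, 810 against the clones with the same title code and 519 to 601 with a clone left out. With fewer clones to compare, more genes lie outside their range by construction. Chromosome 1 medians on the log2 scale became 0.58 for all reads, 1.02 for the 129 allele and 0.11 for the Cast allele with library totals alone, where the sign of the Cast-allele median, -0.04, turned. That scaling also moved the median of all genes to 0.16, and chromosome 1 lay 0.42 to 0.43 above all genes under each of the 3 scalings. With a clone left out these medians were 0.42 to 0.44, 0.84 to 0.89 and -0.04 to -0.03. The 97 genes monoallelic in Astro_129 alone became 164 against the female clones, 210 against those with the same title code and 110 to 142 with a clone left out. The 2 biallelic in Astro_129 alone became 0 on autosomes other than chromosome 1, 13 against the female clones, 40 against those with the same title code and 3 to 4 with a clone left out, with 4 without Astro_mE6. Of 50 named genes called, each kept its sign in all 8 settings, and Arhgef4 alone came under 4-fold, at 3.93-fold. In the settings with fewer comparison clones, a called gene keeps its sign and its 4-fold distance by construction. Only the DESeq2 size factors and the library totals could change either. No paired analysis was possible because the replicate numbers of these clones only name them in accession order and clone 129 has 1 library. At this depth a gene without reads in Astro_129 is bounded by 3 reads. Allelic shares from under 20 allele-specific reads were not used for allelic states or chromosome medians. Where single genes have such a share, as H19 and Fam184b, the number of reads is given.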

Other observations

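Genes of chromosome 1 made up 9 of the 59 genes above the other clones, 1.25% of its 722 genes tested against 0.436% of all 13541. Of the 12 furthest above, 4 are among them, Rgs8, Serpinb8, Rufy4 and Sec16b. Rgs8 was at 12.8 CPM in Astro_129 and 0.055 to 0.39 CPM in the other astrocyte clones, and the NPC libraries held 29.7, 34.7 and 3.80 CPM. Serpinb8, a serine protease inhibitor, was at 39.8 CPM in Astro_129 and at 0.71, 0.67, 2.98 and 1.15 CPM in Astro_C2, Astro_G4, Astro_mC3 and Astro_mE6, with 70.3% of its allele-specific reads from Cast. Sec16b, a protein of endoplasmic reticulum exit sites, was at 10.4 CPM against 0.30 to 1.17 CPM. Rufy4 was at 6.64 CPM, 12.6-fold above the highest of the others and 23.9-fold without Astro_C2. Since each was chosen as at least 4-fold above the highest other clone, a distance beyond the median of the chromosome, 1.35-fold, follows from the choice.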
